A study of Homo sapiens with 9 samples.

Results

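Genes of the mitotic spindle, the kinetochore and the spindle checkpoint, 42 in number, were followed in TC-32, an established Ewing sarcoma cell line. The 42 genes were taken by symbol from the deposited gene tables of 58381 rows. All 42 were found, and all 42 were among the 17235 genes that passed the filter on low counts. The study asked how ETS1, a transcription factor of the ETS family, changes gene expression in cells that carry EWSR1::FLI1, the fusion protein that drives Ewing sarcoma. The data are bulk RNA-seq with 3 libraries in each of 3 groups.

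RFP is the control group: TC-32 cells transduced with a pLOC lentiviral vector that encodes red fluorescent protein. ETS1-Low and ETS1-High are TC-32 cells transduced with pLOC that encodes human ETS1, and they are named for the level of ETS1 reached. Cells of every group were selected with puromycin and passed through single cell sorting, and all of them keep the endogenous fusion. The design text calls the ETS1 cells single cell clones, but the number of clones in a group, and whether the RFP cells are a clone too, is not given in the labels. The labels do not say that the 3 libraries of a group are separate cultures, so every p-value measures the spread between these libraries, which may be technical. A difference between clones and a difference caused by ETS1 cannot be told apart here.

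Mitosis starts when cyclin-dependent kinase CDK1, bound to B-type cyclins, is switched on and the centrosomes build a bipolar spindle. Kinetochores, assembled on centromeres that carry CENPA, bind the ends of spindle microtubules. Until every kinetochore is attached, the checkpoint proteins hold back CDC20 and the anaphase-promoting complex. Once the block is lifted, securin and cyclin B are destroyed, separase opens cohesin, and spindle motors and the central spindle divide the cell. Transcripts of most of these genes rise in G2 and mitosis, and many of their promoters carry CCAAT boxes and a cell cycle genes homology region (CHR), through which the MuvB complex with MYBL2 and FOXM1 acts. In bulk libraries, more cells in G2 and mitosis and more transcript per cell cannot be told apart.

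Promoter windows were available from RefSeq (assembly GRCh38.p14) for 36 of the 42 genes. A window of 300 bases holds 250 bases before the RefSeq start used for the gene and 50 after it. It is read 5′ to 3′ on the gene's own strand. Other starts of a gene were not searched. The start used can differ from the GENCODE v44 positions given below, and the NUF2 and KIF20A windows lie inside the GENCODE genes. Windows of 6 genes are printed because they belong to 3 sets of genes that the results set against each other. The first is a B-type cyclin that fell and one that rose in ETS1-Low. The others are neighbours on chromosome 5 that moved apart, and subunits of the Ndc80 complex that moved apart. Capitals mark every match, on either strand, to the CHR letters TTTGAA or TTCGAA and to CCAAT.
The CCNB1 window lies at chr5:69166900-69167199 (plus strand) and the CCNB2 window at chr15:59104896-59105195 (plus strand).
CCNB1: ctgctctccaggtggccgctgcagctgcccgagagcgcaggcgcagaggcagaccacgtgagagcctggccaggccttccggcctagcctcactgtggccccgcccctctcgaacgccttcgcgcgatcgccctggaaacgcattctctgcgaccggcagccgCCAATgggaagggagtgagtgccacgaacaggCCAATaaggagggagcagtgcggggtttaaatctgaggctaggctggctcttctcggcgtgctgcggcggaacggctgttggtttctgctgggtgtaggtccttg
CCNB2: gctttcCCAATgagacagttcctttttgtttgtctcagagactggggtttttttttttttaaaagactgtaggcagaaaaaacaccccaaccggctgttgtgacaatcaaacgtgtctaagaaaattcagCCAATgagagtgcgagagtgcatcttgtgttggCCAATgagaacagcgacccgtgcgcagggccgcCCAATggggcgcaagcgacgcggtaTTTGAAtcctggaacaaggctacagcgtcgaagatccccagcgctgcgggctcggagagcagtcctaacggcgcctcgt
The KIF20A window lies at chr5:138178862-138179161 (plus strand) and the CDC25C window at chr5:138338306-138338605 (minus strand).
KIF20A: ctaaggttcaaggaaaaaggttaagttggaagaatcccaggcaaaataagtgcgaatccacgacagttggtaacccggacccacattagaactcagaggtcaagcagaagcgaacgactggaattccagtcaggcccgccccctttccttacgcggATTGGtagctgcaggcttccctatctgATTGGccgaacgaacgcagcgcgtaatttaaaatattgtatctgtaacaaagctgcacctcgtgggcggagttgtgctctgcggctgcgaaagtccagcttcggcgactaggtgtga
CDC25C: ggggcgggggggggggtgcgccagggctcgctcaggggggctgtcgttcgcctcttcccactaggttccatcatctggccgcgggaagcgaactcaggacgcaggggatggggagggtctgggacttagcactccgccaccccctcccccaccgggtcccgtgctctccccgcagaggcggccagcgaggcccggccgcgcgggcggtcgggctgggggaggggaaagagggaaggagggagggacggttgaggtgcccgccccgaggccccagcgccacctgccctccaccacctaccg
The NDC80 window lies at chr18:2571307-2571606 (plus strand) and the NUF2 window at chr1:163321704-163322003 (plus strand).
NDC80: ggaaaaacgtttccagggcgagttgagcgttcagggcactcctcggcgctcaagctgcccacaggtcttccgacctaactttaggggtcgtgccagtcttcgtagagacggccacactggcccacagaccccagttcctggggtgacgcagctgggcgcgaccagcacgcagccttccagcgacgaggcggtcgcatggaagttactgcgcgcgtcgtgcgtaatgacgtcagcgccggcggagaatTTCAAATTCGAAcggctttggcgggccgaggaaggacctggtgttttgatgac
NUF2: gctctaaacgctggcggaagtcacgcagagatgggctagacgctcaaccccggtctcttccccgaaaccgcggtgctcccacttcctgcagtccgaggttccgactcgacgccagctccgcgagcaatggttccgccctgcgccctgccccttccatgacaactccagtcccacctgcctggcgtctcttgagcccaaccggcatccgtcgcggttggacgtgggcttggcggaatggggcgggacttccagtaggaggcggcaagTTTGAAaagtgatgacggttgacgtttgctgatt

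ETS1 itself measured 1.81, 2.03 and 2.15 CPM in the RFP libraries, 10.6, 10.8 and 10.3 in those of ETS1-Low and 19.4, 18.2 and 19.7 in those of ETS1-High (CPM is the count scaled to library size with TMM factors), so the libraries carried ETS1 in the order their labels give. The deposited counts summed to between 39484704 and 46654734 per library, and the 42 genes received 813 to 44998 counts each in a library. Of 10 Ewing sarcoma markers, 8 were at 1 CPM or more in every library, and FATE1 was at or near 0 in all 9. The Ewing markers summed to 2470.1 to 2574 CPM per RFP library, 3741 to 3805 with ETS1-Low and 3795 to 3803 with ETS1-High. Markers of other cell types summed to 3.89 to 3.97 CPM per RFP library, 5.96 to 6.74 with ETS1-Low and 5.55 to 6.81 with ETS1-High, and 7 of the 9 stayed under 1 CPM throughout. The part of these shifts in the results was not tested.

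The mitotic genes were called often, mostly upward against RFP, and changed by little. In ETS1-High, 28 rose, 10 fell and 4 were not called at an adjusted p of 0.05 in edgeR's quasi-likelihood test. That is 90.5% called, where 74.2% of all genes tested were called. A rise was seen in 66.7% of the mitotic genes and in 37% of all genes, and a fall in 10 of 42 and in 37.2% of all genes. The median log2 fold change was 0.18 for the 42 genes and -0.01 for all genes. In ETS1-Low, 28 rose (37.9% of all genes), 9 fell (36.2% of all genes) and 5 were not called, which is 88.1% called beside 74.1% of all genes. The median log2 fold change there was 0.17, beside 0.01 for all genes. Both comparisons use the same 3 RFP libraries, so their counts are not separate evidence. Each of the 42 genes had at least 813 counts in every library, while some genes tested had fewer than 10. Among genes with at least 10 counts in every library, 77.4% were called in ETS1-High and 77.5% in ETS1-Low. The part of depth in the gaps between the 42 genes and all genes, here and below, was not tested.

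Single changes were mostly small. The median size of the log2 fold change was 0.26 for the mitotic genes and 0.40 for all genes in ETS1-High, and 0.32 beside 0.41 in ETS1-Low. No member doubled or halved its level. A rise of at least 1.5-fold was reached by 7 genes in ETS1-High (16.7% of all genes did) and by 4 in ETS1-Low (15.8% of all genes). No member fell by that much in either group, where 17.5% and 18.4% of all genes did.

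Between the ETS1 groups the genes split almost evenly. In ETS1-High against ETS1-Low, 19 were higher (29.9% of all genes), 16 lower (29.3% of all genes) and 7 not called, which is 83.3% called beside 59.2% of all genes. The median log2 difference was 0.05, beside 0.00 for all genes, and no member differed by 1.5-fold. Of all genes 17.9% did, 10.2% higher and 7.69% lower. The libraries of the groups did not overlap for 38 of the 42 genes in ETS1-High against RFP (75.5% of all genes), for 39 in ETS1-Low against RFP (76% of all genes) and for 37 in ETS1-High against ETS1-Low (63.2% of all genes).

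**Figure D1:**
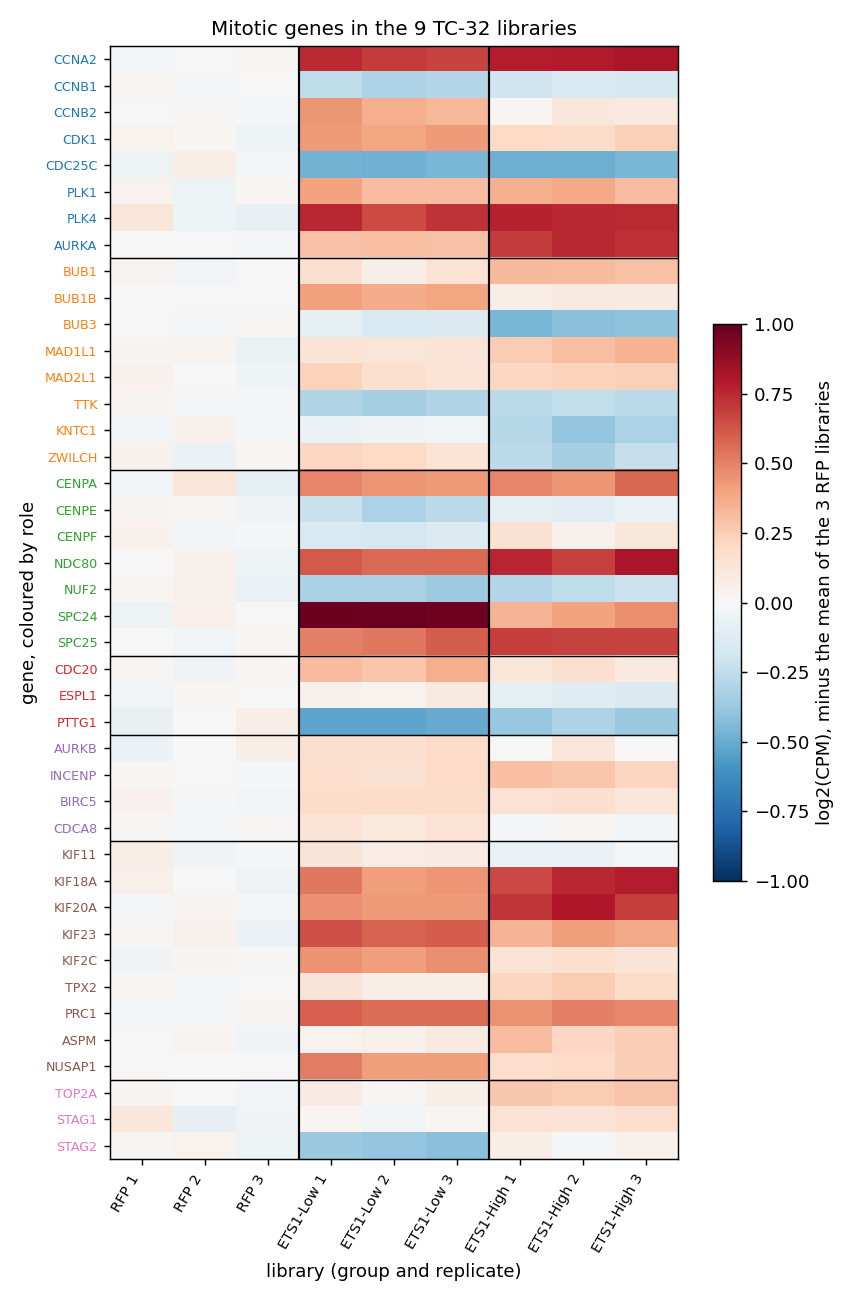
Level of the 42 genes (rows, grouped and coloured by role) in the 9 libraries (columns), as log2 CPM minus the mean of the 3 RFP libraries. Columns of 1 group look alike, CCNA2, PLK4, NDC80 and SPC25 are red in all 6 ETS1 libraries, CDC25C, TTK, NUF2 and PTTG1 are blue in all 6, and SPC24 is darkest in ETS1-Low.

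The size of the upward shift rests on how the libraries are scaled. The TMM factors were 1.05 to 1.07 in RFP, 0.958 to 0.969 in ETS1-Low and 0.974 to 0.987 in ETS1-High. On that scale the summed CPM of the 42 genes was 6417 ± 59.8 for RFP, 7026 ± 99.3 for ETS1-Low and 7171 ± 12.6 for ETS1-High (SD, n = 3). As a share of each library's counts with no TMM factor, they took 0.672% to 0.682% in RFP, 0.668% to 0.682% in ETS1-Low and 0.697% to 0.708% in ETS1-High. Scaling by library totals alone shifted the median of all genes to -0.11 in ETS1-High and -0.12 in ETS1-Low. The median of the mitotic genes was 0.19 and 0.16 above it, as with TMM. Rescaling libraries shifts all genes nearly alike, so it cannot test this gap. With limma on FPKM the gap was smaller, at 0.13 to 0.14 in ETS1-High and 0.11 to 0.13 in ETS1-Low across the settings used.

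With library totals, 21 genes rose and 12 fell in ETS1-High, and 18 rose and 14 fell in ETS1-Low. Of the 28 rises in ETS1-High, 21 were called under all 3 other scalings (DESeq2 size factors, upper quartile and library totals), as were all 10 falls. For ETS1-Low the counts were 18 of 28 rises and 9 of 9 falls. Each of these scalings lowered every member's value against RFP, so the falls could only deepen. That they kept their calls does not make them firmer than the rises. The rises that lost their call under 1 or more of them were those of CCNB2, BUB1B, CENPF, CDC20, BIRC5, KIF2C and STAG1 in ETS1-High, with CCNB2, BUB1B and CENPF turning just below 0. In ETS1-Low they were those of BUB1, MAD1L1, MAD2L1, ZWILCH, AURKB, INCENP, BIRC5, CDCA8, KIF11 and TPX2, of which BUB1, MAD1L1, CDCA8, KIF11 and TPX2 turned below 0. Falls were gained with library totals for CDCA8 and KIF11 in ETS1-High, and for KNTC1, ESPL1, ASPM, TOP2A and STAG1 in ETS1-Low. Between the ETS1 groups only NUF2 lost its call, and 18 of 19 higher and 16 of 16 lower calls were kept.

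**Figure D2:**
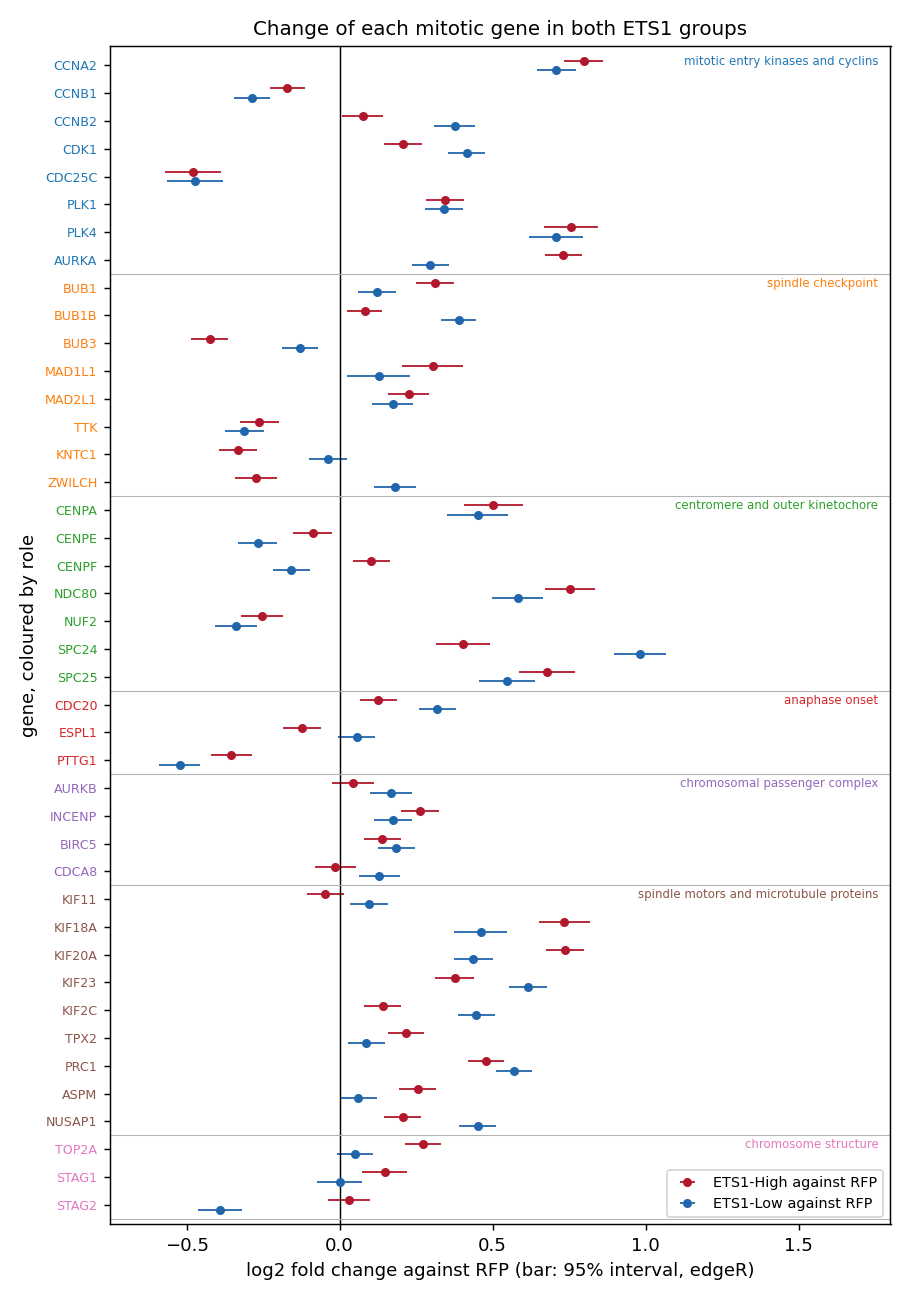
Log2 fold change of each of the 42 genes against RFP (points) with its 95% interval from edgeR (bars), in ETS1-High (red) and ETS1-Low (blue); both share the 3 RFP libraries. Most points lie right of 0, and the farthest are SPC24 in ETS1-Low at 0.98 and CCNA2 in ETS1-High at 0.80.

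Of the 8 kinases, cyclins and phosphatases of mitotic entry, 6 rose and 2 fell in each ETS1 group. CCNA2, PLK4, AURKA, PLK1, CDK1 and CCNB2 rose, while CCNB1 and CDC25C fell. Gene positions are given on GRCh38 from GENCODE v44, and the changes are log2 fold changes throughout. With 0.08 on the log2 scale, CCNB2 rose least in ETS1-High, and that rise lost its call under all 3 other scalings. Under library totals the value was -0.03. Cyclin A2 (CCNA2; ENSG00000145386.9, chr4:121816444-121823883, minus strand), which serves CDK2 in S phase and CDK1 at mitotic entry, measured 66.6, 67.2 and 68.2 CPM in the RFP libraries, 113, 109 and 108 in those of ETS1-Low and 116, 116 and 119 in those of ETS1-High. All 6 ETS1 libraries lay above all 3 RFP libraries. The log2 fold change was 0.80 (SE 0.03, edgeR adjusted p = 4.92e-28) in ETS1-High, the greatest rise among the 42 genes there, and 0.71 (SE 0.03, edgeR adjusted p = 1.01e-25) in ETS1-Low. The gap between the ETS1 groups was 0.09 (SE 0.03, edgeR adjusted p = 0.011), and without the third ETS1-Low library it was no longer called, at 0.08 (edgeR adjusted p = 0.0728).

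PLK4 (ENSG00000142731.10, chr4:127880893-127899224, plus strand), the kinase that starts centriole duplication, measured 29.4, 26.2 and 25.6 CPM in the RFP libraries, 45.6, 42.6 and 44.6 in those of ETS1-Low and 46.2, 45.7 and 45.5 in those of ETS1-High. Its libraries did not overlap between RFP and the ETS1 groups, while those of the ETS1 groups did. PLK4 rose by 0.76 (SE 0.04, edgeR adjusted p = 2.99e-21) in ETS1-High and 0.71 (SE 0.04, edgeR adjusted p = 5.34e-20) in ETS1-Low, with a difference of 0.05 between them (95% interval -0.03 to 0.13, edgeR adjusted p = 0.322). AURKA (ENSG00000087586.17, chr20:56369389-56392337, minus strand), the kinase that matures centrosomes and activates PLK1, measured 105, 105 and 104 CPM in the RFP libraries, 128, 129 and 129 in those of ETS1-Low and 170.4, 177 and 174 in those of ETS1-High. It stepped up from RFP to ETS1-Low and again to ETS1-High, with no overlap at either step. On the log2 scale AURKA changed by 0.30 (SE 0.03, edgeR adjusted p = 1.84e-12) in ETS1-Low, 0.73 (SE 0.03, edgeR adjusted p = 1.36e-27) in ETS1-High and 0.43 (SE 0.03, edgeR adjusted p = 3.69e-18) between ETS1-High and ETS1-Low, the widest positive gap of any member between the ETS1 groups. The deposited counts of AURKA were not whole numbers in any library, as happens where reads are split between genes.

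PLK1, a kinase that acts from entry to cytokinesis, rose by 0.34 in ETS1-High and 0.34 in ETS1-Low on the log2 scale, from a mean of 197 ± 6.42 CPM in RFP to 250.3 ± 5.87 and 249.8 ± 9.2 CPM (SD, n = 3). CDK1 rose by 0.21 and 0.41.

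The B-type cyclins, both partners of CDK1, moved in opposite directions in ETS1-Low. In ETS1-High the rise of CCNB2 was 0.08 (edgeR adjusted p = 0.0416) and lost its call under all 3 other scalings. CCNB1 (ENSG00000134057.14, chr5:69167135-69178245, plus strand) measured 337, 329.6 and 334 CPM in the RFP libraries, 279, 269.8 and 272 in those of ETS1-Low and 291, 299.8 and 298 in those of ETS1-High. It fell in both ETS1 groups, with a log2 fold change of -0.17 (SE 0.03, edgeR adjusted p = 6.31e-07) in ETS1-High and -0.29 (SE 0.03, edgeR adjusted p = 1.23e-12) in ETS1-Low. CCNB2 (ENSG00000157456.7, chr15:59105126-59125045, plus strand) measured 78, 78.4 and 76.9 CPM in the RFP libraries, 105, 99.8 and 97.8 in those of ETS1-Low and 78.6, 84 and 83 in those of ETS1-High. It rose in ETS1-Low by 0.38 (SE 0.03, edgeR adjusted p = 1.91e-14), and the difference of ETS1-High from ETS1-Low was -0.30 (SE 0.03, edgeR adjusted p = 5.01e-11). Per length of transcript, CCNB1 stayed the more abundant: 273 ± 2.47 FPKM in RFP beside 58.7 ± 0.831 FPKM for CCNB2, and 201 ± 3.3 beside 69.6 ± 2.59 FPKM in ETS1-Low (SD, n = 3). The printed CCNB1 window holds CCAAT letters and neither TTTGAA nor TTCGAA, and that of CCNB2 holds CCAAT and TTTGAA. CDC25C (ENSG00000158402.18, chr5:138285269-138338355, minus strand), a phosphatase that activates CDK1, measured 31.5, 34.3 and 32.3 CPM in the RFP libraries, 23.5, 23.4 and 23.8 in those of ETS1-Low and 23.3, 23.3 and 23.8 in those of ETS1-High. It fell, with a log2 fold change of -0.48 (SE 0.05, edgeR adjusted p = 1.48e-13) in ETS1-High and -0.47 (SE 0.05, edgeR adjusted p = 2.61e-13) in ETS1-Low. In ETS1-High no other member fell as far.

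**Figure D3:**
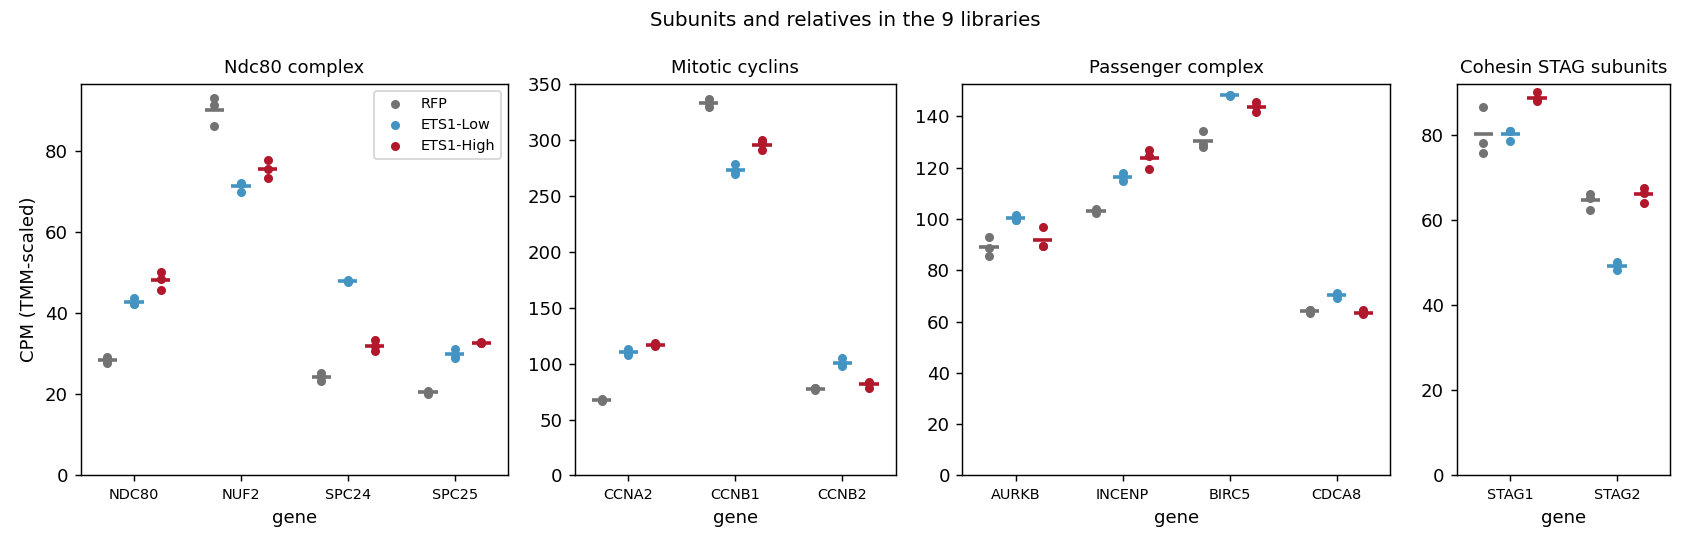
CPM on a linear axis from 0 for 4 sets of subunits or relatives; each point is a library and each bar the mean of 3. NUF2 goes down where NDC80, SPC24 and SPC25 go up, and CCNB1 goes down where CCNA2 goes up. CCNB2 goes up clearly only in ETS1-Low, and STAG2 is lowest in ETS1-Low.

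Among the 8 spindle checkpoint genes, 4 rose and 4 fell in ETS1-High. In ETS1-Low 5 rose, 2 fell and KNTC1 was not called. BUB1, MAD1L1 and MAD2L1, which recruit and form the inhibitor of CDC20, rose by 0.31, 0.30 and 0.23 in ETS1-High on the log2 scale. In ETS1-Low their values were 0.12, 0.13 and 0.17, which lost their calls under another scaling. TTK, the kinase that starts checkpoint signalling, fell, with log2 fold changes of -0.26 (ETS1-High) and -0.31 (ETS1-Low).

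BUB3 (ENSG00000154473.17, chr10:123154402-123170467, plus strand), which docks BUB1 and BUB1B at kinetochores, measured 194, 190.4 and 195 CPM in the RFP libraries, 181, 174 and 175 in those of ETS1-Low and 141, 145 and 146 in those of ETS1-High. All ETS1-High libraries lay below all ETS1-Low libraries, which lay below all RFP libraries. The log2 fold change was -0.42 (SE 0.03, edgeR adjusted p = 4.99e-18) in ETS1-High, -0.13 (SE 0.03, edgeR adjusted p = 0.000123) in ETS1-Low and -0.30 (SE 0.03, edgeR adjusted p = 3.68e-12) between them. Its partner BUB1B (ENSG00000156970.12, chr15:40161023-40221123, plus strand), a part of the CDC20 inhibitor, measured 208, 206 and 207 CPM in the RFP libraries, 275, 267 and 272 in those of ETS1-Low and 216, 221 and 220.3 in those of ETS1-High. BUB1B was highest in ETS1-Low: it rose by 0.39 (SE 0.03, edgeR adjusted p = 2.39e-17) there and its difference of ETS1-High from ETS1-Low was -0.31 (SE 0.03, edgeR adjusted p = 2.03e-13). The value in ETS1-High against RFP, 0.08 (SE 0.03, edgeR adjusted p = 0.00963), fell to -0.02 under library totals. The exons of BUB1B overlap those of PAK6 and of a BUB1B-PAK6 readthrough on the same strand, so some of its reads may have been assigned to either.

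ZWILCH and KNTC1 belong, with ZW10, to the RZZ complex, which brings MAD1L1 and dynein to kinetochores. ZWILCH (ENSG00000174442.11, chr15:66504959-66550130, plus strand) measured 86.6, 80.9 and 85.2 CPM in the RFP libraries, 97.3, 96.9 and 92.4 in those of ETS1-Low and 70.1, 67.1 and 71.9 in those of ETS1-High. RFP lay between the ETS1 groups, with no overlap. Its log2 fold change was -0.27 (SE 0.03, edgeR adjusted p = 7.45e-10) in ETS1-High and 0.18 (SE 0.03, edgeR adjusted p = 4.53e-06) in ETS1-Low, and the difference between them was -0.46 (SE 0.03, edgeR adjusted p = 1.76e-16). The rise in ETS1-Low was not called under library totals (0.05) and was -0.01 on the log2(FPKM + 1) scale. KNTC1 measured 189, 199 and 192 CPM in the RFP libraries, 186, 189 and 190.3 in those of ETS1-Low and 159, 147 and 155 in those of ETS1-High. It fell in ETS1-High, at -0.33 (SE 0.03, edgeR adjusted p = 1.12e-13) on the log2 scale, and its log2 fold change in ETS1-Low was -0.04 (edgeR adjusted p = 0.249), called lower under upper-quartile factors (-0.09) and library totals (-0.17).

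At the centromere and outer kinetochore, 5 of 7 genes rose and 2 fell in ETS1-High, and 4 rose and 3 fell in ETS1-Low. CENPA, the centromeric histone variant, rose by 0.50 and 0.45 on the log2 scale. CENPE, a kinesin that carries chromosomes to the spindle equator, fell, its log2 fold changes being -0.09 (ETS1-High) and -0.27 (ETS1-Low). CENPF (ENSG00000117724.12, chr1:214603185-214664574, plus strand), a large protein of the outer kinetochore, measured 739, 704 and 707 CPM in the RFP libraries, 643, 634 and 651 in those of ETS1-Low and 795, 740.3 and 775 in those of ETS1-High. RFP lay between ETS1-Low and ETS1-High, and only RFP and ETS1-High came near each other. CENPF changed by -0.16 (SE 0.03, edgeR adjusted p = 7.97e-06) in ETS1-Low and 0.26 (SE 0.03, edgeR adjusted p = 1.52e-10) between ETS1-High and ETS1-Low. Its value in ETS1-High against RFP, 0.10 (SE 0.03, edgeR adjusted p = 0.00199), was not called under library totals, where it was -0.00.

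The 4 subunits of the Ndc80 complex, the main microtubule binder of the kinetochore, did not move together. NDC80 (ENSG00000080986.12, chr18:2571557-2616635, plus strand) measured 28.6, 29.4 and 27.7 CPM in the RFP libraries, 43.7, 42.3 and 42.2 in those of ETS1-Low and 48.4, 45.8 and 50.3 in those of ETS1-High. It rose by 0.75 (SE 0.04, edgeR adjusted p = 1.84e-22) in ETS1-High and 0.58 (SE 0.04, edgeR adjusted p = 8.09e-18) in ETS1-Low. NUF2 (ENSG00000143228.12, chr1:163266576-163355764, plus strand), which pairs with NDC80 to form the microtubule-binding end, measured 91.3, 93.1 and 86.2 CPM in the RFP libraries, 72.1, 72 and 70 in those of ETS1-Low and 73.5, 75.6 and 77.7 in those of ETS1-High. NUF2 fell, with a log2 fold change of -0.25 (SE 0.03, edgeR adjusted p = 2.85e-09) in ETS1-High and -0.34 (SE 0.03, edgeR adjusted p = 9.91e-13) in ETS1-Low, with no overlap with RFP.

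SPC24 and SPC25 form the other end of the complex, which binds the inner kinetochore. SPC25 (ENSG00000152253.8, chr2:168834132-168913371, minus strand) measured 20.6, 20.1 and 20.8 CPM in the RFP libraries, 29.1, 29.6 and 31.1 in those of ETS1-Low and 33, 32.6 and 32.7 in those of ETS1-High, a rise of 0.68 (SE 0.04, edgeR adjusted p = 5.16e-19) in ETS1-High and 0.55 (SE 0.05, edgeR adjusted p = 2.04e-15) in ETS1-Low. SPC24 (ENSG00000161888.11, chr19:11131520-11155807, minus strand) measured 23.4, 25.2 and 24.2 CPM in the RFP libraries, 47.9, 48.2 and 47.7 in those of ETS1-Low and 30.7, 32 and 33.4 in those of ETS1-High. Its order differed from that of NDC80 and SPC25: ETS1-Low was highest, ETS1-High intermediate and RFP lowest, with no overlap. The rise of 0.98 (SE 0.04, edgeR adjusted p = 9.84e-27) in ETS1-Low was the greatest of any member in any comparison, and ETS1-High differed from ETS1-Low by -0.58 (SE 0.04, edgeR adjusted p = 1.53e-17). Per length, RFP held 17.9 ± 0.316 FPKM of NDC80, 63 ± 5.48 of NUF2, 18 ± 1.3 of SPC24 and 20.7 ± 0.795 of SPC25 (SD, n = 3). In ETS1-High the levels were closer, at 26 ± 1.92, 49.1 ± 1.08, 21.1 ± 0.709 and 28.8 ± 1.79 FPKM. The NDC80 and NUF2 windows printed above both hold CHR letters close to the RefSeq start used and no CCAAT letters. For NUF2 that start lies inside the gene as annotated by GENCODE.

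Of the 3 genes of anaphase onset, CDC20 rose and PTTG1 fell in both ETS1 groups, and ESPL1 fell in ETS1-High. CDC20 (ENSG00000117399.13, chr1:43358981-43363203, plus strand), the activator of the anaphase-promoting complex, measured 217, 211 and 219 CPM in the RFP libraries, 269, 262 and 277 in those of ETS1-Low and 235, 241 and 231 in those of ETS1-High. It was highest in ETS1-Low, with a log2 fold change of 0.32 (SE 0.03, edgeR adjusted p = 1.18e-13) against RFP and -0.19 (SE 0.03, edgeR adjusted p = 2.19e-07) for ETS1-High against ETS1-Low. The value for ETS1-High against RFP, 0.13 (SE 0.03, edgeR adjusted p = 0.000193), was not called under library totals (0.02). PTTG1 (ENSG00000164611.12, chr5:160421855-160428739, plus strand), securin, the inhibitor of separase, measured 113, 119 and 125 CPM in the RFP libraries, 82.4, 82.5 and 83.9 in those of ETS1-Low and 91.8, 95.9 and 91.9 in those of ETS1-High. All 6 ETS1 libraries lay below RFP. PTTG1 changed by -0.35 (SE 0.03, edgeR adjusted p = 9.82e-14) in ETS1-High and -0.52 (SE 0.03, edgeR adjusted p = 1.3e-19) in ETS1-Low, the deepest fall among the 42 genes there. ESPL1, separase, had log2 fold changes of -0.12 in ETS1-High (edgeR adjusted p = 0.000324) and 0.06 in ETS1-Low (edgeR adjusted p = 0.0918), which turned to -0.08 and was called lower under library totals.

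The chromosomal passenger complex, which corrects faulty attachments and later guides cytokinesis, rose in ETS1-Low, where all 4 of its genes were called under TMM, though all 4 calls were lost under library totals. In ETS1-High 2 rose and 2 were not called. INCENP (ENSG00000149503.12, chr11:62123998-62153169, plus strand), its scaffold, measured 104, 103 and 102 CPM in the RFP libraries, 116, 115 and 118 in those of ETS1-Low and 127, 125 and 119.5 in those of ETS1-High. It rose by 0.26 (SE 0.03, edgeR adjusted p = 1.21e-10) in ETS1-High and 0.17 (SE 0.03, edgeR adjusted p = 2.03e-06) in ETS1-Low, the latter not called under library totals (0.04). Its difference between the ETS1 groups, 0.09 (SE 0.03, edgeR adjusted p = 0.0127), was not called without the second ETS1-Low library (edgeR adjusted p = 0.0593) or without the first ETS1-High library (edgeR adjusted p = 0.0702). BIRC5 (ENSG00000089685.14, chr17:78214186-78225636, plus strand), survivin, measured 134, 129 and 128 CPM in the RFP libraries, 148, 149 and 148 in those of ETS1-Low and 144, 146 and 142 in those of ETS1-High, a log2 fold change of 0.14 (SE 0.03, edgeR adjusted p = 4.78e-05) in ETS1-High and 0.18 (SE 0.03, edgeR adjusted p = 3.5e-07) in ETS1-Low. Both of its calls were lost under library totals. CDCA8 (ENSG00000134690.10, chr1:37692481-37709719, plus strand), borealin, measured 64.5, 63.3 and 64.6 CPM in the RFP libraries, 70.7, 69 and 71 in those of ETS1-Low and 63.2, 64.5 and 62.8 in those of ETS1-High. ETS1-High overlapped RFP, with a log2 fold change of -0.01 (95% interval -0.08 to 0.05) that was called lower under upper-quartile factors (-0.07), library totals (-0.12) and each FPKM setting. ETS1-Low lay above both, at 0.13 (SE 0.03, edgeR adjusted p = 0.000446) against RFP, which turned to -0.00 under library totals. AURKB, the kinase of the complex, had a log2 fold change of 0.04 in ETS1-High (95% interval -0.02 to 0.11) and 0.17 in ETS1-Low (edgeR adjusted p = 1.9e-05).

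Spindle motors and microtubule proteins rose for the most part. Of 9, 8 rose, none fell and 1 was not called in each ETS1 group: KIF11, the motor that pushes the poles apart, in ETS1-High (-0.05, edgeR adjusted p = 0.168) and ASPM, a spindle pole protein, in ETS1-Low (0.06, edgeR adjusted p = 0.0669). Under library totals 7 rose in ETS1-High and KIF11 was called lower, at -0.15 (-0.11 with upper-quartile factors, also called). In ETS1-Low 6 rose under library totals, ASPM was called lower, at -0.07, and KIF11 and TPX2 were at -0.04, not called. Between the ETS1 groups 4 were higher in ETS1-High and 5 lower.

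The motors fell into separate orders. KIF20A (ENSG00000112984.11, chr5:138178719-138187723, plus strand), a motor of the central spindle, measured 107, 110.2 and 108 CPM in the RFP libraries, 149, 146 and 145 in those of ETS1-Low and 178, 189 and 174 in those of ETS1-High. KIF18A (ENSG00000121621.6, chr11:28020619-28108156, minus strand), which dampens chromosome movement at the spindle equator, measured 30.3, 29.2 and 28.3 CPM in the RFP libraries, 42.2, 39.1 and 39.6 in those of ETS1-Low and 46.1, 49.3 and 50.5 in those of ETS1-High. Both were lowest in RFP, intermediate in ETS1-Low and highest in ETS1-High, with no overlap. KIF20A rose by 0.44 (SE 0.03, edgeR adjusted p = 1.63e-17) in ETS1-Low and 0.74 (SE 0.03, edgeR adjusted p = 9.71e-27) in ETS1-High, and KIF18A by 0.46 (SE 0.04, edgeR adjusted p = 8.24e-14) and 0.73 (SE 0.04, edgeR adjusted p = 1.34e-21). The steps from ETS1-Low to ETS1-High were 0.30 (SE 0.03, edgeR adjusted p = 6.01e-12) for KIF20A and 0.27 (SE 0.04, edgeR adjusted p = 1.02e-07) for KIF18A.

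KIF23 (ENSG00000137807.14, chr15:69414246-69448427, plus strand), the motor of centralspindlin, measured 128, 130.2 and 122 CPM in the RFP libraries, 198, 191 and 193 in those of ETS1-Low and 159.6, 169 and 164 in those of ETS1-High. KIF2C (ENSG00000142945.12, chr1:44739818-44767767, plus strand), which takes apart wrongly attached microtubules, measured 129, 135 and 134 CPM in the RFP libraries, 181, 177 and 183 in those of ETS1-Low and 146, 148 and 145 in those of ETS1-High. These were highest in ETS1-Low, and ETS1-High lay between ETS1-Low and RFP. KIF23 rose by 0.62 (SE 0.03, edgeR adjusted p = 1.37e-23) in ETS1-Low and 0.38 (SE 0.03, edgeR adjusted p = 2.31e-15) in ETS1-High, and KIF2C by 0.45 (SE 0.03, edgeR adjusted p = 7.98e-19) in ETS1-Low. The value of KIF2C in ETS1-High, 0.14 (SE 0.03, edgeR adjusted p = 4.28e-05), was not called under library totals (0.04). ETS1-High differed from ETS1-Low by -0.24 (SE 0.03, edgeR adjusted p = 2.93e-09) for KIF23 and by -0.30 (SE 0.03, edgeR adjusted p = 1.1e-12) for KIF2C.

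PRC1, which bundles antiparallel microtubules of the central spindle, rose by 0.48 in ETS1-High and 0.57 in ETS1-Low on the log2 scale. NUSAP1, another microtubule bundler, rose by 0.21 and 0.45. TPX2, which activates AURKA on the spindle, rose by 0.22 in ETS1-High, and its value in ETS1-Low was 0.09, below 0 under library totals.

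Of the 3 genes of chromosome structure, TOP2A and STAG1 rose in ETS1-High, and STAG2 fell in ETS1-Low. TOP2A (ENSG00000131747.14, chr17:40388525-40417896, minus strand), the topoisomerase that untangles sister chromatids, measured 842, 825 and 812 CPM in the RFP libraries, 874, 834 and 861 in those of ETS1-Low and 999, 987 and 1008 in those of ETS1-High. The ETS1-High values lay above all others and differed by 0.27 (SE 0.03, edgeR adjusted p = 7.18e-12) from RFP and 0.22 (SE 0.03, edgeR adjusted p = 4.35e-09) from ETS1-Low on the log2 scale. ETS1-Low overlapped RFP, at 0.05 (95% interval -0.01 to 0.11, edgeR adjusted p = 0.11); under library totals this was called lower, at -0.08, and without the second ETS1-Low library it was called higher, at 0.07 (edgeR adjusted p = 0.0488).

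STAG1 and STAG2 are alternative subunits of cohesin, and STAG2 is recurrently lost in Ewing sarcoma. STAG2 (ENSG00000101972.18, chrX:123960212-124422664, plus strand) measured 65.2, 66.2 and 62.5 CPM in the RFP libraries, 50.1, 49.5 and 48.4 in those of ETS1-Low and 67.7, 64.1 and 66.4 in those of ETS1-High. ETS1-Low lay below all other libraries, while RFP and ETS1-High overlapped. STAG2 changed by -0.39 (SE 0.04, edgeR adjusted p = 4.98e-14) in ETS1-Low, 0.03 in ETS1-High (95% interval -0.04 to 0.10) and 0.42 (SE 0.04, edgeR adjusted p = 1e-14) between ETS1-High and ETS1-Low. STAG1 (ENSG00000118007.12, chr3:136336236-136752403, minus strand) measured 86.7, 75.7 and 78.2 CPM in the RFP libraries, 81, 78.6 and 81 in those of ETS1-Low and 88.4, 88 and 90 in those of ETS1-High. The first RFP library was the highest of its group and came close to ETS1-High. The log2 fold change of STAG1 was 0.15 (SE 0.04, edgeR adjusted p = 0.000384) in ETS1-High, not called under library totals (0.04), and -0.00 in ETS1-Low (95% interval -0.07 to 0.07). In ETS1-Low STAG1 was called lower under library totals (-0.13) and on the log2(FPKM + 1) scale (-0.16). Per length, RFP held 16.4 ± 0.932 FPKM of STAG1 and 14.5 ± 1.21 of STAG2 (SD, n = 3), and ETS1-Low 14.5 ± 0.551 and 11.1 ± 0.524.

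The changes were set beside those of the genes around each member. For each member, the local median is the median log2 fold change of the tested genes with a mean log2 CPM over 1 that start within 10 Mb on either side, the member left out. Across the 42 genes, the change and the local median had a Pearson correlation of 0.64 in ETS1-High against RFP, 0.75 in ETS1-Low against RFP and 0.71 between the ETS1 groups. Across 12264 genes the values were 0.29, 0.32 and 0.35. These describe genes within the same libraries, which share depth and scaling and are not replicates. Members shared the sign of their local median in 24, 33 and 34 of 42 cases, that is 57.1%, 78.6% and 81%, beside 62.9%, 66.3% and 64.2% of all genes. In ETS1-High against RFP the share among members was thus below that of all genes.

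Where the local median was above 0.25, all 9 members in ETS1-High and all 12 in ETS1-Low rose, as did 76.6% and 74.7% of all genes in such neighbourhoods. Where it was below -0.25, 5 of 7 fell in ETS1-High and 5 of 6 in ETS1-Low, as did 71.1% and 77.7% of all genes there, and KIF20A was the 1 member that rose in each. Between the ETS1 groups, all 9 members with a local median below -0.25 were lower in ETS1-High (79.2% of all genes there), and STAG2, the 1 member above 0.25, was higher (85% of all genes there). In neighbourhoods between -0.25 and 0.25, 18 of 26 rose and 5 fell in ETS1-High, where 37.3% of all genes rose and 40.9% fell. In ETS1-Low 15 of 24 rose and 4 fell, where 39.9% of all genes rose and 38% fell.

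**Figure D4:**
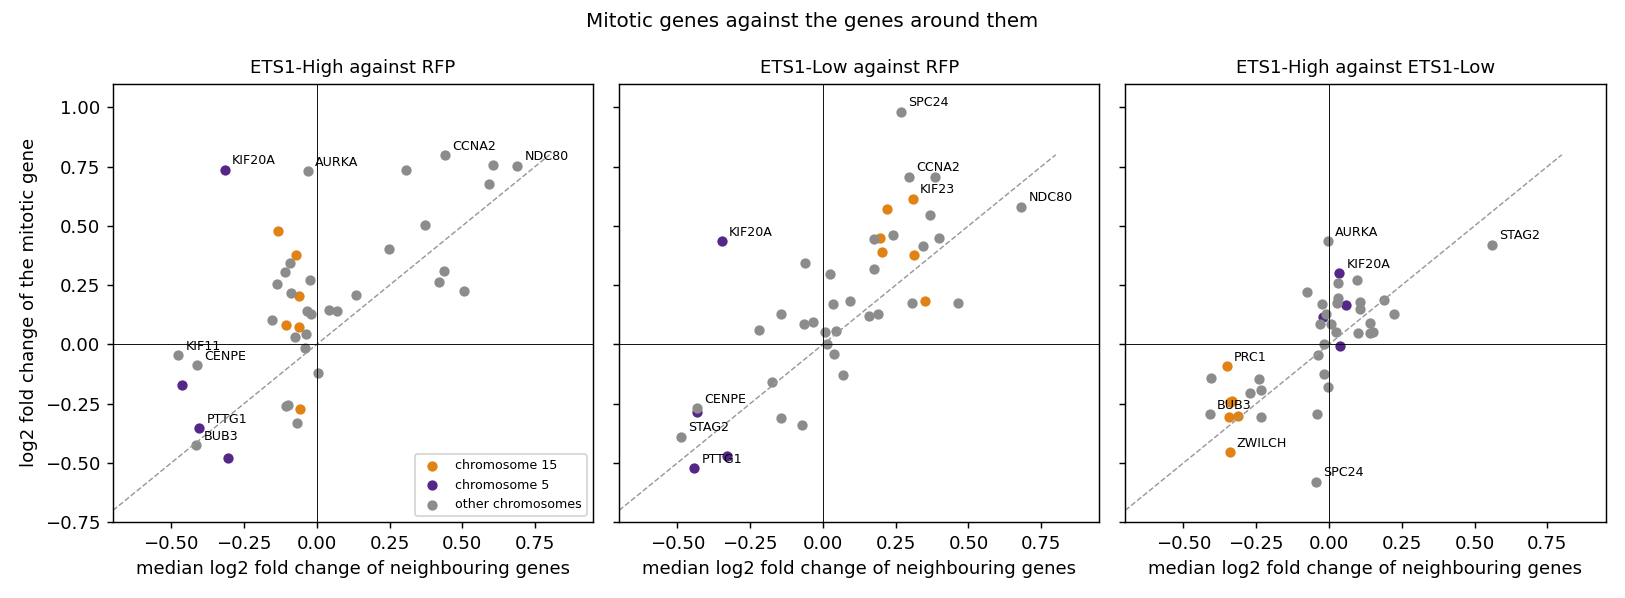
Log2 fold change of each of the 42 genes (vertical) against the median of the genes within 10 Mb (horizontal), 1 panel per comparison; the dashed line marks equal values. Members on chromosome 15 (orange) lie above 0 in ETS1-Low against RFP and below 0 in ETS1-High against ETS1-Low, and KIF20A stands apart from the other members on chromosome 5 (purple).

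On chromosome 15 lie 6 members: CCNB2, BUB1B, ZWILCH, KIF23, PRC1 and NUSAP1. All 6 rose in ETS1-Low, by 0.18 to 0.62 on the log2 scale, where the median of the 420 tested genes of that chromosome was 0.24. All 6 were lower in ETS1-High than in ETS1-Low, with log2 differences of -0.46 to -0.09 beside a chromosome median of -0.33. Against RFP, 5 rose and ZWILCH fell in ETS1-High, where the chromosome median was -0.07. On chromosome 10, CDK1, BUB3 and KIF11 were all lower in ETS1-High than in ETS1-Low, beside a chromosome median of -0.31. On chromosome 2, BUB1, CENPA and SPC25 rose in both ETS1 groups, beside chromosome medians of 0.46 and 0.32. STAG2, on chromosome X, had local medians of -0.49 (ETS1-Low against RFP) and 0.56 (ETS1-High against ETS1-Low), beside its own -0.39 and 0.42.

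Chromosome 5 held both the members that fell with their surroundings and the clearest exception. CCNB1, CDC25C and PTTG1 fell in both ETS1 groups, where the 552 tested genes of the chromosome had medians of -0.35 (ETS1-High) and -0.39 (ETS1-Low). KIF20A rose there by 0.74 and 0.44, against local medians of -0.32 and -0.35. A gap of 98 kb separates the annotated ends of KIF20A and CDC25C. The exons of KIF20A overlap those of CDC23 on the opposite strand, and whether strand was used in counting is not stated in the sources used here. CDC23, a subunit of the anaphase-promoting complex, fell, with a log2 fold change of -0.61 (SE 0.03, edgeR adjusted p = 1.51e-22) in ETS1-High and -0.64 (SE 0.03, edgeR adjusted p = 2.71e-23) in ETS1-Low. The windows of this set, printed above, hold CCAAT letters for KIF20A and none for CDC25C, and neither window holds TTTGAA or TTCGAA.

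AURKA and SPC24 also differed from the genes around them. AURKA, on chromosome 20, had local medians of -0.03, 0.02 and -0.00 in the 3 comparisons, beside its own 0.73, 0.30 and 0.43. SPC24, on chromosome 19, had local medians of 0.27 against RFP with ETS1-Low and -0.04 for ETS1-High against ETS1-Low, beside its own 0.98 and -0.58. With the local median subtracted from each member, the median of the 42 genes was 0.14 in ETS1-High and 0.11 in ETS1-Low.

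CHR letters stood in 23 of the 36 promoter windows (63.9%), and in 13.5% of the windows of 15842 coding genes. CCAAT letters stood in 28 windows (77.8%), beside 36.4% of coding genes. Both stood in 19 windows (52.8%), beside 5.57%. CHR letters lay within 50 bases of the start in 18 windows (50%), beside 3.65% of coding genes. The letters CCGGAA, a form of the site bound by ETS factors, stood in 10 windows (27.8%), close to the 22.9% of coding genes. Other forms of the site were not searched. All searches took both strands, and none of these strings contains another.

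The members were also split by these letters. Of the 23 with CHR letters, 19 rose, 2 fell and 2 were not called in ETS1-High, with a median log2 fold change of 0.26. Of the 13 without, 6 rose, 5 fell and 2 were not called, with a median of 0.04. In ETS1-Low, 18 rose and 2 fell with CHR letters (median 0.34), and 7 rose and 5 fell without (median 0.13). Between the ETS1 groups, 9 with CHR letters were higher and 10 lower in ETS1-High (median 0.05), and 8 without were higher and 4 lower (median 0.11). With CCAAT letters, 20 of 28 rose and 4 fell in each ETS1 group; the median was 0.22 for ETS1-High against 0.18 for ETS1-Low. Without CCAAT letters, 5 of 8 rose and 3 fell in each, with medians of 0.11 and 0.26. With CCGGAA letters, 6 of 10 rose and 2 fell in ETS1-High, and 8 of 10 rose and 1 fell in ETS1-Low. Without them, 19 of 26 rose and 5 fell, and 17 of 26 rose and 6 fell. These differences were not tested, and a match of letters does not show binding. Only TTTGAA and TTCGAA were searched as CHR letters, so a window without them is not shown to lack a CHR.

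Other genes of mitosis moved both ways. Of 110 in 8 further lists, 59 rose (53.6%, beside 37% of all genes) and 28 fell (37.2% of all genes) in ETS1-High. Their median log2 fold change was 0.14. In ETS1-Low 57 rose (51.8%, beside 37.9% of all genes) and 30 fell (36.2% of all genes), with a median of 0.10. In each group 79.1% were called, close to the 74.2% and 74.1% of all genes. Of 17 genes of CENP-A loading and the inner kinetochore, 9 rose and 6 fell in ETS1-High (median 0.15), while 6 rose and 9 fell in ETS1-Low (median -0.14). Of 10 further outer kinetochore genes 5 rose and 2 fell in ETS1-High, and 6 rose and 0 fell in ETS1-Low. In each ETS1 group 11 of 18 genes of the anaphase-promoting complex and its partners rose and 3 fell. Of 14 cohesin genes 5 rose and 6 fell in ETS1-High, and 5 rose and 4 fell in ETS1-Low. Their share of rises, 35.7% in each group, was near that of all genes. Of 8 condensin genes 6 rose and 2 fell, and then 5 and 2. The counts of rises and falls in ETS1-High and then ETS1-Low were 13 and 3, and 11 and 4, for 20 further spindle and cytokinesis genes. For 8 centriole genes they were 4 and 1, and 6 and 2, and for 15 other regulators 6 and 5, and 7 and 6. The shares of rises, to be read beside 37% and 37.9% of all genes, were 52.9% and 35.3% for CENP-A loading. They were 50% and 60% for the outer kinetochore, 61.1% in each group for the anaphase-promoting complex and 75% and 62.5% for condensin. For spindle and cytokinesis they were 65% and 55%, for centrioles 50% and 75%, and for other regulators 40% and 46.7%.

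HJURP, the chaperone that loads CENPA, had the greatest rise of its list in ETS1-High. Its mean was 66.2 ± 1.51 CPM in RFP, 147 ± 1.64 in ETS1-Low and 157 ± 3.42 in ETS1-High (SD, n = 3). HJURP rose by 1.24 (SE 0.03, edgeR adjusted p = 1.74e-36) in ETS1-High and 1.15 (SE 0.03, edgeR adjusted p = 7.94e-35) in ETS1-Low, with local medians of 0.52 and 0.37. NUMA1, a spindle pole protein, rose by 0.71 and 0.47, and NCAPH2, a condensin II subunit, by 0.77 and 0.95 on the log2 scale. WAPL, which releases cohesin, fell, with a log2 fold change of -0.62 and -0.24, beside local medians of -0.48 and -0.06. SKA1, of the kinetochore's SKA complex, rose by 0.70 and 0.82, and GTSE1, a microtubule-binding protein, by 0.64 and 0.54. CENPJ, which lengthens centrioles, fell, at -0.32 and -0.48.

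The transcription factors of these genes moved both ways. Of 14, 6 rose and 6 fell in ETS1-High, and 6 rose and 5 fell in ETS1-Low. The rises were 42.9% in each group, beside 37% and 37.9% of all genes. TFDP1, the partner of E2F factors, rose by 0.56 and 0.47. FOXM1 rose by 0.25 (SE 0.03, edgeR adjusted p = 1.34e-10) in ETS1-High and 0.16 (SE 0.03, edgeR adjusted p = 3.82e-06) in ETS1-Low. Values of these transcription factors under library totals are not given here. INCENP and BIRC5, whose rises in ETS1-Low were 0.17 and 0.18, lost those calls under that scaling. MYBL2 rose by 0.20 (SE 0.03, edgeR adjusted p = 8.29e-08) in ETS1-High and 0.42 (SE 0.03, edgeR adjusted p = 1.19e-17) in ETS1-Low, and was lower in ETS1-High than in ETS1-Low, at -0.22 (SE 0.03, edgeR adjusted p = 1.24e-08).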

How the data were processed

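Total RNA of TC-32 cells was made into stranded mRNA libraries, per the labels' protocols. The authors deposited a table of expected counts and a table of FPKM per gene, both named for RSEM. The submitters' processing notes name cutadapt 4.4, STAR 2.7.3, featureCounts, Subread 2.0.3, limma 3.38.3 and GRCh38 without role or order; RSEM settings, the annotation release and the use of strand are not given in the sources used here. The authors' deposited expected counts were rounded to whole numbers; 10 of the 42 genes had whole counts in every library and 7 were not whole in 6 or more.

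Counts were filtered with filterByExpr, scaled by TMM and fitted with edgeR 4.0.16 (R 4.3.3; robust quasi-likelihood test, all 9 libraries, 3 contrasts), with Benjamini-Hochberg adjustment over 17235 genes and a threshold of 0.05. The libraries of a group were compared by a chi-square per gene (2.66 to 5.19), and none was a repeat of another. Alternatives were DESeq2 1.42.0, limma 3.58.1 (voom, and log2(FPKM + 1) or + 0.1), other scalings and filters, a replicate block, fits of 2 groups and leaving out each library; scaling by library totals was added after seeing the data. Positions are from GENCODE v44 (GRCh38), matched for 99.2% of tested genes. Genes named with the value in every library were, by rule, the member of each role with the greatest change in each comparison, members called with at least 1.5-fold change, called in opposite directions against RFP or called nowhere, and BUB3, STAG1 and STAG2; of each further list, the gene with the greatest change in ETS1-High against RFP, with FOXM1, MYBL2, MKI67 and CDKN1A. CCNB1, CCNB2, CDC25C, NUF2 and KNTC1 were added after their values were seen. The statistical code was tested on simulated data. Intervals cover the spread between libraries only. The members and lists were chosen with earlier results of these data known.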

Additional observations from a re-analysis of the deposited data

Results flagged for a closer look

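ZWILCH and CENPF were called in opposite directions against RFP in the ETS1 groups, and the difference between the ETS1 groups was itself called by edgeR. For ZWILCH the log2 difference of ETS1-High against ETS1-Low was -0.46 (edgeR adjusted p = 1.76e-16), with every ETS1-High library below and every ETS1-Low library above RFP; its rise in ETS1-Low did not keep its call under library totals (0.05) and was -0.01 on the FPKM scales. For CENPF it was 0.26 (edgeR adjusted p = 1.52e-10), with every ETS1-Low library below RFP; its value in ETS1-High against RFP, 0.10, did not keep its call under library totals. Both comparisons against RFP use the same 3 libraries. The local median between the ETS1 groups was -0.34 around ZWILCH and 0.03 around CENPF.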

How the results depend on the processing

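The counts of calls moved by less than 1.5 times under DESeq2, limma-voom, other filters, other size factors and fits of 2 groups. Rises in ETS1-Low went from 28 to 18 with limma on log2(FPKM + 1), on log2(FPKM + 0.1), on FPKM with no filter and with library totals, which gave 14 falls; rises in ETS1-High went to 18 with limma on FPKM with no filter. The median log2 fold change in ETS1-Low was 0.15 with DESeq2 size factors, with the DESeq2 test and with at least 10 counts, 0.12 with upper-quartile factors, 0.16 when only both groups compared were fitted, 0.041 with log2(FPKM + 1) with and without a filter, 0.043 with log2(FPKM + 0.1), 0.042 with library totals, and 0.11 after the local median was subtracted. In ETS1-High it was 0.12 with upper-quartile factors, 0.16 with at least 10 counts, 0.048 with log2(FPKM + 1) with and without a filter, 0.049 with log2(FPKM + 0.1), 0.072 with library totals and 0.14 after the local median was subtracted, and between the ETS1 groups 0.079 with library totals. With library totals, upper-quartile factors, DESeq2 size factors and FPKM the median of all genes moved too. With upper-quartile factors it was -0.07 in ETS1-High and -0.04 in ETS1-Low, and with DESeq2 size factors -0.02 and -0.01. The median of the 42 genes was 0.19 and 0.16 above it under both, as with TMM. The cause of the other shifts was not tested.

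Among the members named by rule, the following values changed sign and were called in either fit. BUB1B in ETS1-High was -0.0335 with log2(FPKM + 1) with and without a filter, -0.0339 with log2(FPKM + 0.1) and -0.0227 with library totals. STAG1 in ETS1-High was -0.0115 and -0.0121 with these FPKM scales, and ZWILCH in ETS1-Low -0.0074 and -0.0076. With library totals, CENPF in ETS1-High was -8e-04, CDCA8 in ETS1-Low -0.0023 and TOP2A in ETS1-Low -0.082. Sign changes with no call in either fit are left out, such as STAG2 in ETS1-High. It was 0.03 with TMM, -0.03 with upper-quartile factors and -0.07 with library totals. With library totals CCNB2 in ETS1-High (-0.03) and BUB1 (-0.01), MAD1L1 (-0.005), KIF11 (-0.04), TPX2 (-0.04), ESPL1 (-0.08) and ASPM (-0.07) in ETS1-Low changed sign too. Leaving out 1 library gave 27 to 28 rises, 9 to 10 falls and a median of 0.16 to 0.21 in ETS1-High, 27 to 29 rises, 9 falls and 0.16 to 0.19 in ETS1-Low, and 17 to 19 higher, 16 lower and 0.041 to 0.071 between the ETS1 groups. Deviations of same-numbered libraries correlated at -0.09 to 0.11, and those of differently numbered ones at -0.14 to 0.09. No pairing by number was seen, though so few libraries cannot exclude one. With the replicate block the counts were 28 and 10, 28 and 9, and 19 and 16, and the medians 0.18, 0.17 and 0.05.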

Other observations

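Genes of the phases before mitosis moved both ways. Of 26 genes of G1 and S phase, 11 rose and 11 fell in ETS1-High, and 16 rose and 8 fell in ETS1-Low. The rises were 42.3% and 61.5%, beside 37% and 37.9% of all genes. Between the ETS1 groups 7 were higher (26.9%, beside 29.9% of all genes) and 15 lower in ETS1-High, where 29.3% of all genes were lower. CCND2, a D-type cyclin of G1, fell in both ETS1 groups (edgeR adjusted p = 4.22e-42 and 1.08e-41), with a mean of 23.6 ± 0.665 CPM in RFP, 0.225 ± 0.0672 in ETS1-Low and 0.186 ± 0.0348 in ETS1-High (SD, n = 3). CDKN1A, the inhibitor p21 of cyclin-dependent kinases, had means of 3.62 ± 0.401, 12.7 ± 0.914 and 20.4 ± 0.574 CPM in the same order and rose by a log2 fold change of 1.81 (SE 0.08, edgeR adjusted p = 8.95e-26) in ETS1-Low and 2.49 (SE 0.08, edgeR adjusted p = 1.26e-32) in ETS1-High. MKI67, the Ki-67 proliferation mark, measured 642, 627 and 628 CPM in the RFP libraries, 709, 699 and 747 in those of ETS1-Low and 642, 606 and 576 in those of ETS1-High. It rose in ETS1-Low by 0.18 (SE 0.03, edgeR adjusted p = 2.48e-06), and its log2 fold change in ETS1-High was -0.06 (edgeR adjusted p = 0.115). The difference of ETS1-High from ETS1-Low was -0.24 (SE 0.03, edgeR adjusted p = 1.91e-08). Values of MKI67 under library totals are not given here. BIRC5, with a rise of 0.18 in ETS1-Low, lost that call under library totals.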
